A study of Arabidopsis thaliana with 15 samples.

Results

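The phi-class glutathione transferases examined here are 9 Arabidopsis thaliana loci, GSTF2, GSTF5, GSTF6, GSTF7, GSTF8, GSTF9, GSTF10, GSTF11 and GSTF13, taken by locus number from a root count table of 14391 genes. A row was found for 8 of the 9. GSTF5 (AT1G02940) has no row in the table used and was not analysed here. All 8 loci with a row passed the filter on low counts, run over all libraries together, that left 9891 genes for testing. GSTF6 and GSTF7 failed it in some fits of only the groups compared, as given below. No gene of the table stays under 6 counts in all libraries.

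Roots came from wild-type seedlings of ecotype Columbia-0, 7 days old, kept in 16 h of light and 8 h of dark at 21 °C. A combined treatment of 5 mM H2O2 with 10 µM of a compound labelled MRB for 2 h is called RBH. The sources used here do not explain MRB. The other treated groups stood in 10 µM Rose Bengal (RB), a dye that makes singlet oxygen in light, for 1, 2 or 3 h. The control roots were in water. The water samples are labelled as 1 h in water, whereas their titles carry a 0, so at 2 and 3 h both the treatment and the time in solution differ from water. The sources used here do not give the light during treatment, and roots in H2O2 alone were not analysed here. Each of the 5 groups had 3 biological replicates of 30 to 50 seedlings, and MARS-seq, a method that reads transcripts close to their 3′ end, was used to count RNA.

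Glutathione transferases join the tripeptide glutathione to reactive or toxic compounds, and some also reduce peroxides with it. The conjugates are then moved into the vacuole by ABC transporters and broken down. In plants the phi and tau classes are the large ones, and many of their genes are known to respond to oxidants, pathogens and herbicides. Some members have roles in making or carrying specialised metabolites.

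GSTF8 (AT2G47730) is known for a promoter element, the ocs element, that has long been used to report stress in roots. Such elements hold the core TGACG bound by TGA factors, and WRKY factors bind a core of TTGAC. The stretches before the start of 3 members are shown because they stand for the different responses described below, GSTF7 as a member with few reads that was called at 2 h, GSTF8 as the member with the most counts, and GSTF11 as the member that fell. They come from RefSeq, build TAIR10.1, are written 5′ to 3′ on the gene's strand and end at the base before the annotated start. Capitals mark TGACG or TTGAC, or the same core read from the other strand (CGTCA or GTCAA). The GSTF7 window lies at chr1:659981-660230 on the minus strand. That of GSTF8 lies at chr2:19556127-19556325 on the plus strand, and that of GSTF11 at chr3:734663-734891 on the plus strand. The GSTF8 and GSTF11 windows are 199 and 229 bases long because an annotated neighbouring gene takes up the rest of the 250 bases, all of which were searched.
GSTF7: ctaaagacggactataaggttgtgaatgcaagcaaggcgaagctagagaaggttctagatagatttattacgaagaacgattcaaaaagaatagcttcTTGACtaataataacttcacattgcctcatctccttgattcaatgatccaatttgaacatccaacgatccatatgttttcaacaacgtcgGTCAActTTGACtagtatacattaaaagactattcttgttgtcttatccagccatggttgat
GSTF8: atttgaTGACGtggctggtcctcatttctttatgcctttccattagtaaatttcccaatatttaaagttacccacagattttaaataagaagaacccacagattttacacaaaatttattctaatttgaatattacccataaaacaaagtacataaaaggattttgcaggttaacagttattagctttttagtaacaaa
GSTF11: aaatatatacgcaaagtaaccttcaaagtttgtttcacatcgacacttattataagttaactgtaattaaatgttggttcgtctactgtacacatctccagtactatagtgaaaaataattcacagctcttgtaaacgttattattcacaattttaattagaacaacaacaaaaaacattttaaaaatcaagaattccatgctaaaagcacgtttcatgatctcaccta

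Windows of 8 listed loci were searched. TGACG stands in 2 of the 8 on either strand, against 18.6% of 27437 annotated promoters of 250 bases. Those are GSTF8, 193 to 189 bases before the start, and GSTF10, 15 to 11 bases before it. TTGAC stands in 2 of the 8, GSTF7 and GSTF10, against 44.9% of promoters. GSTF7 holds it 3 times, at 152 to 148, 62 to 58 and 55 to 51 bases before the start, and 14.1% of promoters hold it at least 2 times. GSTF10 holds it at 23 to 19 bases. The G-box CACGTG was in 0 of the 8 windows, against 6.49% of promoters. GAANNTTC, a pair of heat shock element units, was in 2 of the 8, GSTF7 and GSTF10, against 9.55% of promoters. Both cores appear in GSTF10, which passed no test below. Neither is in the windows of GSTF2, which rose, GSTF11, which fell, or GSTF5, GSTF9 and GSTF13. A neighbouring annotated gene overlaps 202 of the 250 GSTF2 bases. A link between these matches and the responses was not tested. The plot of motif positions shows these matches for the 8 loci.

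**Figure D1:**
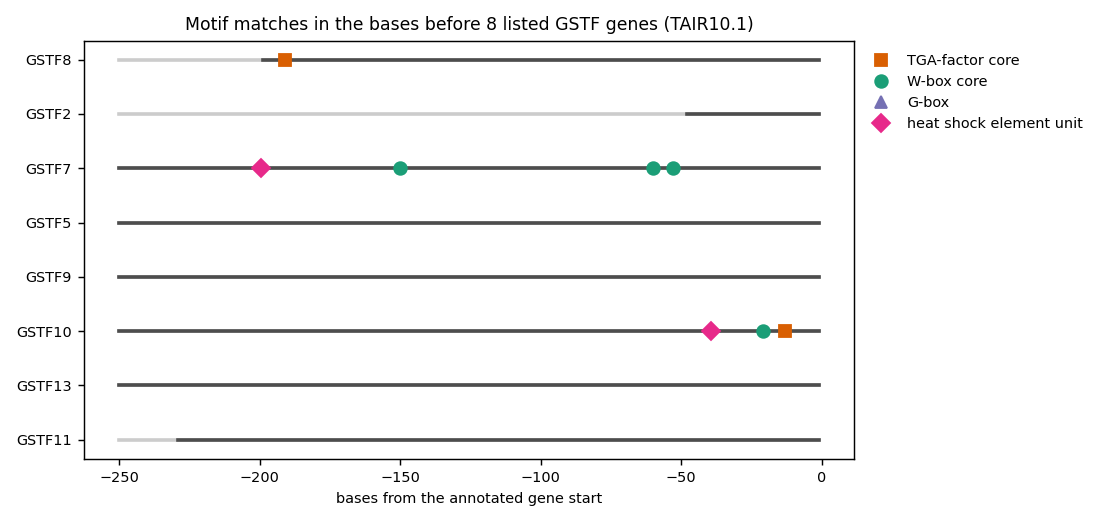
Matches to 4 short motifs in the 250 bases before the annotated start of 8 listed phi-class loci, with the distance from the start in bases on the horizontal axis and 1 row per gene. The pale part of a line is overlapped by a neighbouring gene. GSTF7, GSTF8 and GSTF10 hold matches, and GSTF7 is the only one of the 8 with more than 1 match to TTGAC.

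In the annotation, GSTF7, GSTF6 and GSTF5 follow one another on chromosome 1 on 1 strand with 0 genes between neighbours, and GSTF9 and GSTF10 are neighbours on chromosome 2. Coding sequences were 94.3% identical between GSTF6 and GSTF7 and 60.2% between GSTF9 and GSTF10, with gaps counted as differences. For GSTF9 the coding sequence used has 501 bases, from 1 of 2 annotated transcripts, against 648 for GSTF10. The gaps from this difference in length lower the 60.2%. GSTF2 was 94.5% identical to GSTF3, a phi-class locus outside the listed 9. For reads near the 3′ end the relevant stretch is the last 500 bases of the transcript. There, 71 of 451 windows of 50 bases of GSTF6, or 15.7%, occur unchanged in the GSTF7 transcript, while 0 of the last GSTF7 windows occur in GSTF6. In the same way, 0 windows are shared by GSTF2 and GSTF3 or by GSTF9 and GSTF10. Reads from those GSTF6 windows may therefore have been split with GSTF7, counted for it or left out. The windows give no such ground for reads from the last bases of GSTF7. The counts of GSTF6 and GSTF7 are also given summed. The sources used here do not say whether the counting used strand.

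The 15 libraries held between 897728 and 6230975 counts, with the deepest in RBH and the shallowest in water. On the third principal component of all genes, RB 1 h replicate b and RB 2 h replicate a stood apart. Without both, the GSTF7 call at 2 h of RB described below was lost and no other call of a member was. All 19 marker genes for shoot green tissue, root hair and endodermis had rows. In RBH, shoot green markers summed to between 0.0607 and 0.0926% of counts, in water to between 0.0620 and 0.0875%, and over RB 1 h to between 0.0377 and 0.0515%. They lay between 0.0392 and 0.0741% in RB 2 h and between 0.0246 and 0.0296% in RB 3 h, so that all libraries of 1 and 3 h of RB lay below water. The 4 root hair markers summed to at most 0.00240% in RBH, to between 0.0131 and 0.0166% in water, to between 0.00923 and 0.0194% in RB 1 h, to at most 0.00482% in RB 2 h and to at most 0.00262% in RB 3 h. Their lowest sums were 0.000241% in RBH, 0.00273% in RB 2 h and 0.000706% in RB 3 h. Every library of RBH and of 2 and 3 h of RB lay below water in these. The 6 endodermis markers summed to between 0.0846 and 0.124% in RBH, between 0.0985 and 0.104% in water, between 0.108 and 0.126% in RB 1 h, between 0.0694 and 0.0955% in RB 2 h and between 0.0544 and 0.0711% in RB 3 h. CAB2, SHV2 and CASP4 were at 0 in some library. The endodermis sums of 2 and 3 h of RB lay below water. The part of these shifts in the results below was not tested.

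Most of the phi-class counts came from 3 genes, GSTF8, GSTF2 and GSTF9. Together the 8 members held 0.687 ± 0.0730% of all counts in RBH (SD, n = 3 libraries in this and every group). Along the time course they held 0.293 ± 0.0418% in water, 0.506 ± 0.112% at 1 h, 0.647 ± 0.0672% at 2 h and 0.993 ± 0.0729% at 3 h of RB. These are shares of 3′-end reads and do not rank the transcripts per length. In bulk roots, a different number of cells of a type and a different amount of RNA per cell cannot be told apart, here and in all results below. No treated library fell within the range of the water libraries. The exact two-sided permutation test gave p = 0.1 for RBH and for each time against water, the smallest that 3 against 3 libraries allow, or 0.14 after Benjamini-Hochberg adjustment over the 7 comparisons. RBH and RB 2 h overlapped (difference 0.0405 percentage points, exact permutation p = 0.6).

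Within those counts, GSTF8 made up 64.6 ± 3.74% in RBH, and 39.7 ± 4.12% in water, 48.2 ± 6.52% at 1 h, 61.8 ± 7.46% at 2 h and 61.9 ± 3.18% at 3 h of RB. GSTF9 made up 8.18 ± 0.603% in RBH, and 26.6 ± 1.45% in water, 20.9 ± 4.11% at 1 h, 10.8 ± 4.08% at 2 h and 10.5 ± 0.595% at 3 h. GSTF2 stayed between 25.5 and 29.5% of the members' counts on average in all 5 groups. These fractions were not tested, and the plot of shares shows them by library.

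**Figure D2:**
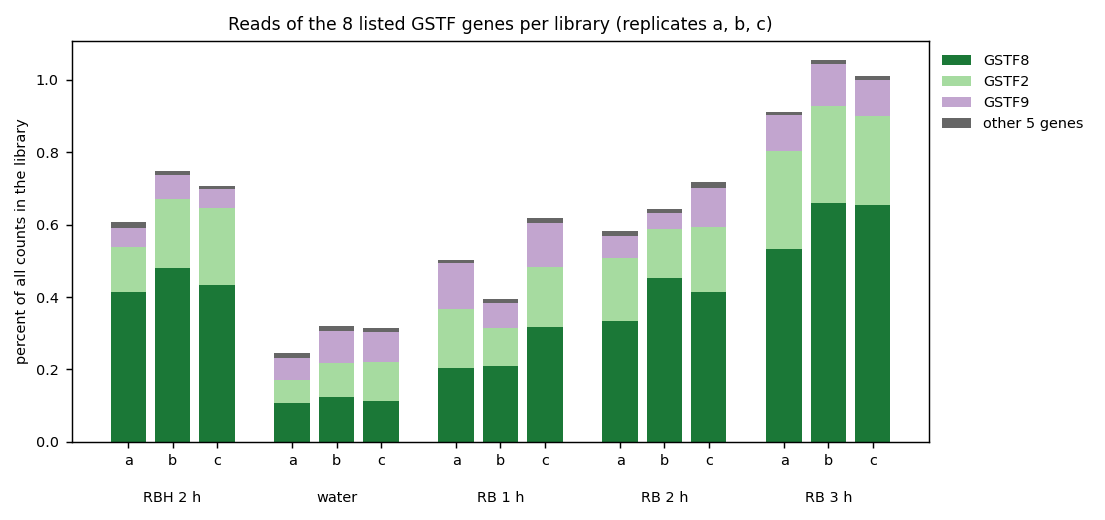
Share of all counts held by the 8 phi-class members in each library, in percent, stacked as GSTF8, GSTF2, GSTF9 and the other 5 together, with libraries grouped as RBH, water and RB 1, 2 and 3 h. The RB 3 h libraries reach 0.913 to 1.06% and the water libraries 0.245 to 0.320%, and GSTF8 is the largest segment in every library drawn.

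GSTF8, a plastid and cytosolic enzyme whose promoter is a known stress reporter, rose at each time and in RBH. In RBH, its 3 libraries held 6232, 8169 and 26952 counts. Along the course the counts were 971, 1776 and 2152 in water, 6279, 2207 and 5590 at 1 h, 3447, 8716 and 9512 at 2 h, and 23409, 12375 and 8930 at 3 h of RB. Scaled for sequencing depth (CPM, read counts relative to the TMM-adjusted library size), the water libraries lay below all others, and RB 1 h, 2 h and 3 h did not overlap one another. GSTF8 averaged 4934 ± 297 CPM in RBH. It averaged 1237 ± 84.4 CPM in water, 2281 ± 463 at 1 h, 3855 ± 386 at 2 h and 5874 ± 771 at 3 h of RB.

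Against water, the log2 fold change of GSTF8 was 0.88 (SE 0.17) at 1 h, 1.64 (SE 0.17) at 2 h, 2.25 (SE 0.17) at 3 h and 2.00 (SE 0.17) in RBH. The adjusted p values of edgeR's quasi-likelihood test, by Benjamini-Hochberg over 9891 genes, were 0.00148, 9.71e-08, 6.07e-10 and 2.91e-09. GSTF8 was also higher at 2 h than at 1 h of RB, by 0.76 on the log2 scale (SE 0.17, adjusted p = 0.00366). Between 3 h and 2 h the log2 difference was 0.61 (SE 0.17, adjusted p = 0.121) with no overlap of the libraries. DESeq2 gave 0.64 for that step, with an adjusted p of 0.013. The GSTF8 libraries of RBH, 4747 to 5276 CPM, all lay above those of RB 2 h, 3473 to 4244 CPM, yet the log2 difference of 0.36 (SE 0.17) did not pass the test (edgeR adjusted p = 0.148).

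**Figure D3:**
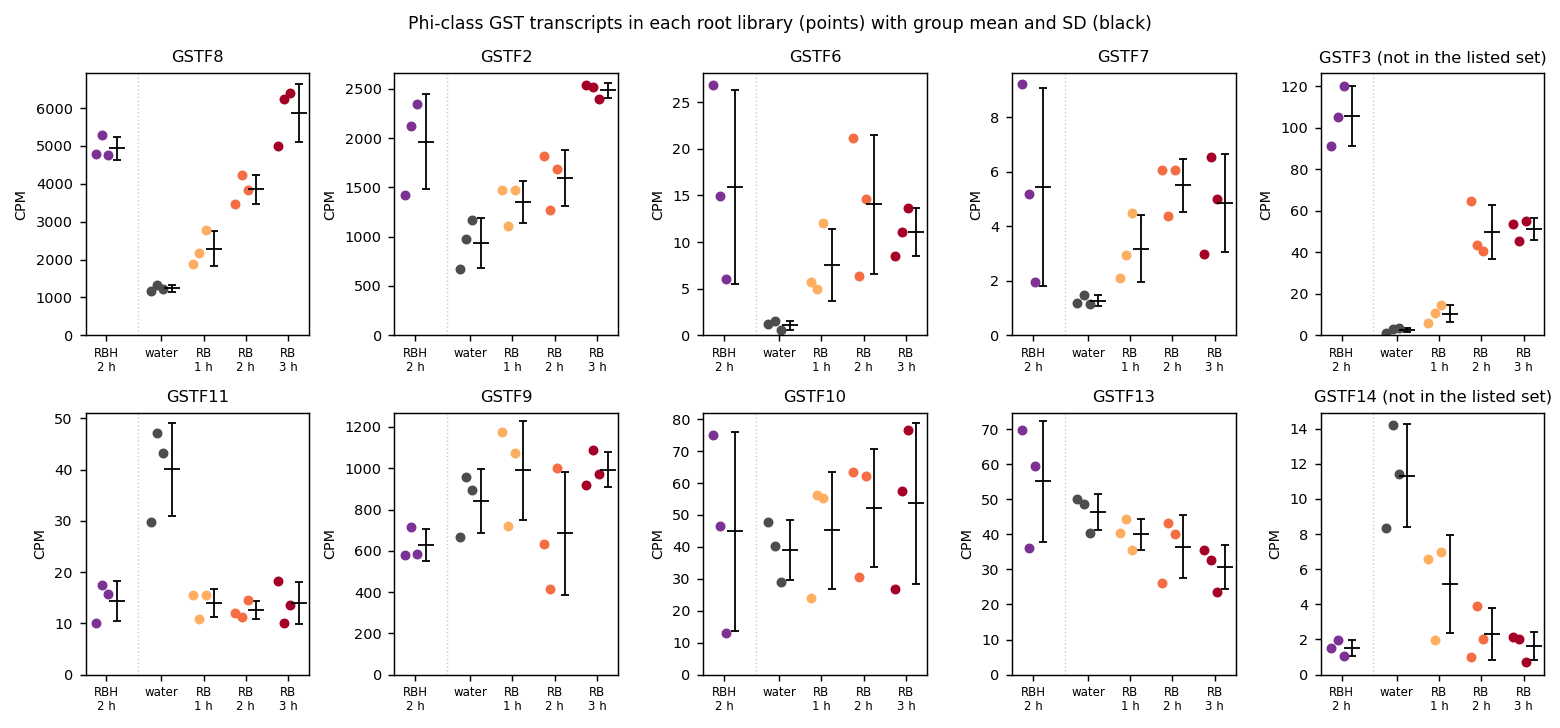
CPM of each phi-class gene in every library, 1 panel per gene with its own axis from 0, with RBH on the left followed by water and RB at 1, 2 and 3 h, points for libraries and black bars for group mean and SD. GSTF3 and GSTF14 are outside the listed 9. GSTF8 lies at 1159 to 1327 CPM in water libraries and at 4988 to 6397 CPM after 3 h of RB, GSTF11 lies at 29.8 to 47.1 CPM in water and at no more than 18.3 CPM elsewhere, and GSTF10 spreads widely within groups.

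GSTF2 (AT4G02520), which is known to bind camalexin and other indole compounds as well as to act as a transferase, rose in RBH and at 2 and 3 h of RB. RBH libraries held 1855, 3291 and 13303 counts. The course held 561, 1303 and 2051 counts in water, 4930, 1125 and 2956 at 1 h, 1804, 2614 and 4177 at 2 h, and 11917, 5001 and 3341 at 3 h of RB. The RBH, 2 h and 3 h libraries all lay above water, and those of 1 h overlapped it. GSTF2 averaged 1964 ± 482 CPM in RBH. It averaged 937 ± 252 CPM in water, 1353 ± 212 at 1 h, 1593 ± 285 at 2 h and 2484 ± 79.2 at 3 h of RB.

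The log2 fold change of GSTF2 against water was 1.07 (SE 0.21) in RBH, with an edgeR adjusted p of 0.000412. It was 0.76 (SE 0.21, adjusted p = 0.0095) at 2 h and 1.40 (SE 0.21, adjusted p = 1.55e-05) at 3 h of RB. At 1 h the value was 0.53 (SE 0.21, adjusted p = 0.154), which did not pass. The GSTF2 call at 2 h rested on replicate a of water, without which it was 0.57 with an adjusted p of 0.0764. Summing GSTF2 with GSTF3 gave 0.80 at 2 h, with an adjusted p of 0.00628. GSTF2 in RBH and in RB 2 h overlapped, with a log2 difference of 0.30 (SE 0.21, adjusted p = 0.35).

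The balance between these abundant members was compared within libraries. The log2 ratio of GSTF2 to GSTF8 counts averaged -1.36 ± 0.37 in RBH, and along the course -0.44 ± 0.36 in water, -0.75 ± 0.35 at 1 h, -1.29 ± 0.41 at 2 h and -1.23 ± 0.23 at 3 h of RB. RBH, 2 h and 3 h did not overlap water, and 1 h did. The exact permutation p was 0.1 for each of those 3, the smallest the design allows, and 0.3 after adjustment over 21 ratio tests.

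GSTF6 (AT1G02930), which joins glutathione to indole-3-acetonitrile on the way to the defence compound camalexin, was higher in all treated groups than in water, where its reads were few. It had 35, 23 and 34 counts in RBH libraries. It had 1, 2 and 1 counts in water, 19, 5 and 24 at 1 h, 21, 13 and 36 at 2 h, and 40, 22 and 19 at 3 h of RB. The treated libraries did not overlap water on the CPM scale. GSTF6 averaged 15.9 ± 10.5 CPM in RBH, and 1.09 ± 0.471 in water, 7.53 ± 3.87 at 1 h, 14.0 ± 7.43 at 2 h and 11.1 ± 2.54 at 3 h of RB.

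The log2 fold change of GSTF6 against water was 3.74 (SE 0.76) in RBH, with an edgeR adjusted p of 0.00064. It was 2.84 (SE 0.82) at 1 h, 3.63 (SE 0.77) at 2 h and 3.31 (SE 0.78) at 3 h of RB, with adjusted p of 0.0447, 0.00127 and 0.0022. With 4 counts in all the water libraries the size is poorly fixed. The ratio of summed counts per total was 10.6 (95% exact binomial counting interval 4 to 39.7) in RBH, 7.42 (2.72 to 28.3) at 1 h, 12.5 (4.66 to 47) at 2 h and 9.86 (3.71 to 37.1) at 3 h. Over 21 alternatives the adjusted p at 1 h ran between 0.0107 and 0.219. The 1 h call was lost in 10 of the 21, 1 of which tested the sum of GSTF6 and GSTF7 (0.0629). It was lost without any 1 of the 3 water libraries (adjusted p = 0.109, 0.0819 and 0.219 without a, b and c) or without replicate a or c of RB 1 h (0.0573 and 0.184). It was also lost without replicate c of RB 2 h (0.054) or replicate b or c of RB 3 h (0.0557 and 0.0515). In a further fit of only RB 1 h and water, GSTF6 did not pass the filter on low counts and was not tested. The same held for GSTF6 in such a fit of RBH and water.

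GSTF7 (AT1G02920), the near copy of GSTF6 next to it, had 12, 8 and 11 counts in RBH libraries. It had 1, 2 and 2 counts in water, 7, 3 and 9 at 1 h, 6, 9 and 15 at 2 h, and 14, 13 and 7 at 3 h of RB. Its mean over the 15 libraries, 7.93 counts, is the lowest of the 8. On the CPM scale no treated group overlapped water, where GSTF7 averaged 1.28 ± 0.191. Against water it was higher at 2 h of RB, with a log2 fold change of 2.05 (SE 0.73, edgeR adjusted p = 0.0418). The values at 1 h, 3 h and in RBH, 1.24, 1.81 and 1.82, had adjusted p of 0.394, 0.0598 and 0.0711.

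The call for GSTF7 at 2 h was lost in 10 of 21 alternatives, and the adjusted p over the 21 ran between 0.0015 and 0.143. Those that lost it were DESeq2 (0.075), the fit without both libraries apart on the third component (0.0673), 7 fits without 1 library each and 1 with a term for the replicate letter. In detail, the adjusted p was 0.0882, 0.0794 and 0.143 without water a, b and c, 0.0608, 0.0516 and 0.121 without RB 2 h a, b and c, and 0.05 without RB 3 h c. In a further fit of only RB 2 h and water, GSTF7 did not pass the filter on low counts and was not tested. The same held for GSTF7 in such fits of 1 h and of 3 h of RB with water, of RBH with water and of RB 2 h with RB 1 h. At 3 h a call appeared without RBH a (0.0447), RBH c (0.033) or RB 3 h a (0.0439), and in RBH without RBH c (0.0121). Summed, GSTF6 and GSTF7 had log2 fold changes of 3.05 in RBH and 2.20, 3.00 and 2.71 at 1, 2 and 3 h. The sum passed in RBH (edgeR adjusted p = 0.000936), at 2 h (0.0015) and at 3 h (0.00261), and not at 1 h (0.0629).

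The log2 ratio of GSTF6 to GSTF7 averaged 1.52 ± 0.06 in RBH, and -0.25 ± 0.43 in water, 1.13 ± 0.42 at 1 h, 1.16 ± 0.61 at 2 h and 1.20 ± 0.40 at 3 h of RB. No treated library overlapped water (exact permutation p = 0.1 each, 0.3 after adjustment over 21 tests). The water ratios rest on 1 or 2 counts of each gene, with 0.5 added before the logarithm.

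GSTF11 (AT3G03190), linked to the synthesis of aliphatic glucosinolates, was the member that fell, and it did so already at 1 h. RBH libraries held 13, 27 and 89 counts. The course held 25, 63 and 76 counts in water, 52, 11 and 31 at 1 h, 12, 23 and 36 at 2 h, and 86, 20 and 19 at 3 h of RB. Scaled for library size, all treated libraries lay below all water libraries. GSTF11 averaged 14.4 ± 3.91 CPM in RBH, and 40.1 ± 9.06 in water, 14.0 ± 2.71 at 1 h, 12.6 ± 1.74 at 2 h and 14.0 ± 4.14 at 3 h of RB.

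GSTF11 fell by 1.47 on the log2 scale in RBH against water (SE 0.28, edgeR adjusted p = 0.000281). In RB it fell by 1.50 (SE 0.29) at 1 h, by 1.67 (SE 0.29) at 2 h and by 1.49 (SE 0.28) at 3 h, with adjusted p of 0.00154, 0.000137 and 0.000206. These 4 calls stood in all 22 alternatives run. Between the treated groups GSTF11 overlapped, and the log2 difference of RBH from RB 2 h was 0.20 (SE 0.30, adjusted p = 0.706).

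GSTF9 and GSTF10, neighbours on chromosome 2, and GSTF13 passed no test in the 7 comparisons. GSTF9 (AT2G30860) had 758, 1109 and 3317 counts in RBH libraries. It had 558, 1283 and 1572 in water, 3924, 732 and 2151 at 1 h, 629, 852 and 2481 at 2 h, and 4319, 2156 and 1356 at 3 h of RB. All its groups overlapped water on the CPM scale. It averaged 627 ± 77.1 CPM in RBH, and 840.1 ± 154 in water, 989.7 ± 238 at 1 h, 684 ± 298 at 2 h and 993 ± 85.1 at 3 h of RB. The replicates of 2 h were wide apart, 415 to 1003 CPM. Without replicate c of that group, GSTF9 was lower at 2 h than water (-0.68, adjusted p = 0.0469) and than 1 h (-0.92, adjusted p = 0.0176).

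GSTF10 (AT2G30870), known to bind the receptor kinase BAK1, had 98, 72 and 74 counts in RBH libraries. It had 40, 54 and 51 in water, 80, 57 and 111 at 1 h, 63, 63 and 154 at 2 h, and 126, 114 and 107 at 3 h of RB. Its CPM ranges overlapped in every comparison, with log2 fold changes of 0.13 in RBH and 0.19, 0.43 and 0.44 at 1, 2 and 3 h against water, each with an SE of 0.61 to 0.62. The deepest library of RBH, with 6230975 counts, had 13.0 CPM of GSTF10 where its partners had 75.1 and 46.5. The deepest libraries of RB 1 h and RB 3 h, with 3059488 and 4389349 counts, and of water, with 1897364, were also the lowest of their groups in GSTF10, at 24.0, 26.8 and 29.1 CPM. In RB 2 h the deepest library, with 2305295 counts, had 62.3 CPM, and the lowest was replicate b at 30.7. GSTF6 and GSTF7 were lowest in the deepest library of RBH, water and RB 3 h as well, GSTF7 also in that of RB 1 h, and neither in that of RB 2 h. The part of library depth in these values was not tested.

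GSTF13 (AT3G62760) had 91, 56 and 337 counts in RBH libraries. It had 42, 65 and 71 in water, 135, 45 and 71 at 1 h, 26, 89 and 99 at 2 h, and 167, 65 and 33 at 3 h of RB. It averaged 55.1 ± 17.2 CPM in RBH, and 46.4 ± 5.18 in water, 40.1 ± 4.46 at 1 h, 36.5 ± 9.09 at 2 h and 30.7 ± 6.24 at 3 h of RB. At 3 h its libraries did not overlap water, and the log2 fold change of -0.56 (SE 0.25) had an edgeR adjusted p of 0.0937. In RBH against RB 2 h the libraries overlapped, with a log2 difference of 0.56 (SE 0.24, adjusted p = 0.12). Over the 15 libraries, GSTF13 varied least among the members, with an SD of 0.40 in log2 CPM, followed by GSTF9 with 0.43. GSTF6 varied most, with 1.25.

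At 1 h, GSTF6 and GSTF8 were higher and GSTF11 lower among the 8 members, where 5.39% of all genes tested were called, 3.07% as higher and 2.32% as lower. The median log2 fold change of the members was 0.38, against 0.02 for all genes. At 2 h, GSTF2, GSTF6, GSTF7 and GSTF8 were higher and GSTF11 lower, 5 of 8 with 24.8% of all genes called, 12.6% higher and 12.2% lower, and medians of 0.60 and 0.04. At 3 h, GSTF2, GSTF6 and GSTF8 were higher and GSTF11 lower, 4 of 8 with 32.7% of all genes called, 16.2% higher and 16.6% lower, and medians of 0.92 and 0.01. In RBH against water, GSTF2, GSTF6 and GSTF8 were higher and GSTF11 lower, 4 of 8 with 27% of all genes called, 14.4% higher and 12.6% lower, and medians of 0.66 and 0.04. All 4 comparisons use the same water libraries. The authors' deposited table, which marks genes by adjusted p and a fold threshold, marks 2 members at 1 h, 3 at 2 h, 4 at 3 h and 4 in RBH against water, and 0 between treated groups. The share of all genes that the authors marked was not counted here. Whether these counts of marked members differ from that share was therefore not tested.

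**Figure D4:**
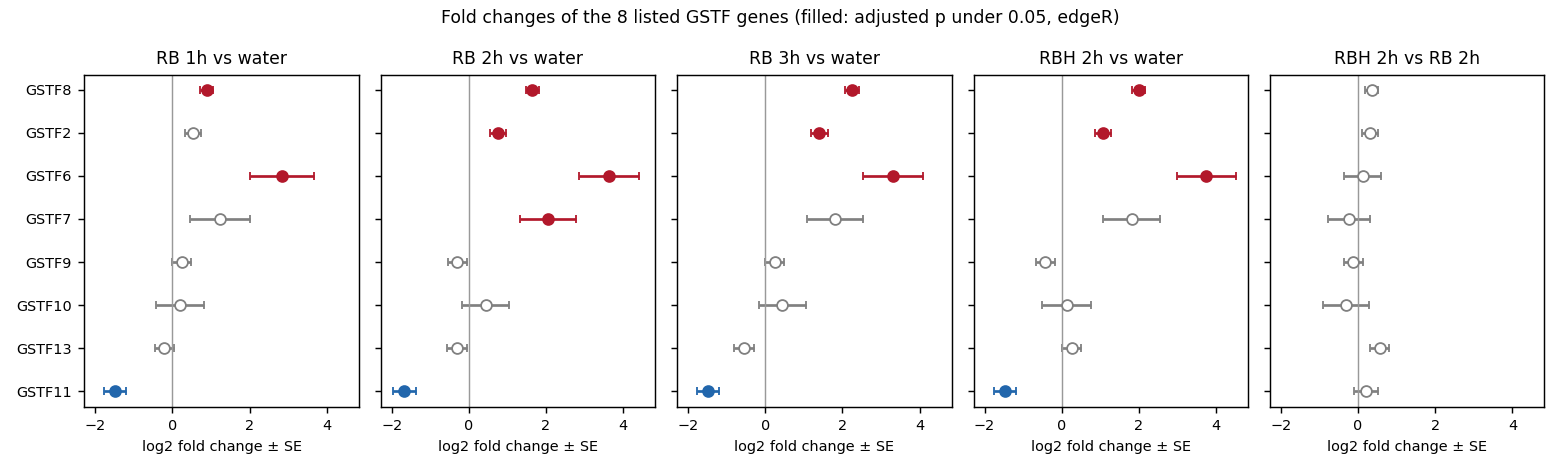
Log2 fold change of each phi-class member in 5 comparisons, RB at 1, 2 and 3 h and RBH against water and RBH against RB 2 h, with bars of 1 SE and filled points where the edgeR adjusted p was under 0.05. GSTF8 lies at 0.88, 1.64 and 2.25 at 1, 2 and 3 h and at 2.00 in RBH, GSTF11 lies at -1.47 to -1.67 in the 4 comparisons with water, and RBH against RB 2 h has open points only.

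The combined treatment was set against RB at 2 h, RBH against RB. Its compound is labelled MRB, so if that differs from RB, the compound and the H2O2 change together. None of the 8 members was called by edgeR, where 16.8% of all genes tested were, 9.82% as higher and 6.97% as lower. An unadjusted edgeR p under 0.05 was found for 2 members, GSTF8 and GSTF13, and for 2986 of the 9891 genes tested. DESeq2 called 0 members and 1481 of those genes. The median log2 difference of the members was 0.16, against -0.02 for all genes. Between successive times, GSTF8 was the 1 member called at 2 h against 1 h, with 9.79% of all genes called, 5.63% higher and 4.16% lower. At 3 h against 2 h edgeR called 0 members, with 0.222% of all genes called, 0.0607% higher and 0.162% lower. There, 3 members (GSTF2, GSTF8 and GSTF9) had an unadjusted edgeR p under 0.05, as had 842 of the 9891 genes tested. DESeq2 called 1 member, GSTF8, and 99 of those genes.

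Of the 4 phi-class loci outside the listed 9, GSTF4 and GSTF12 have no row in the table used. GSTF3 (AT2G02930), the near copy of GSTF2, had 119, 163 and 683 counts in RBH libraries. It had 1, 4 and 6 counts in water, 20, 11 and 29 at 1 h, 64, 89 and 101 at 2 h, and 251, 90 and 77 at 3 h of RB. GSTF3 averaged 105.6 ± 14.5 CPM in RBH, 49.6 ± 13.0 in RB 2 h and 2.53 ± 1.18 in water. It was higher against water in RBH (5.23, SE 0.36, edgeR adjusted p = 9.08e-11), at 1 h (1.82, SE 0.46, 0.0166), at 2 h (4.10, SE 0.38, 1.93e-08) and at 3 h (4.18, SE 0.38, 7.18e-09). GSTF3 was also higher in RBH than in RB 2 h, by 1.13 (SE 0.24, adjusted p = 0.00199), and whether GSTF2 and GSTF3 differ in this was not tested. GSTF14 (AT1G49860) was lower against water in RBH (-3.03, SE 0.57, adjusted p = 0.000207), at 2 h (-2.18, SE 0.53, 0.00383) and at 3 h (-2.65, SE 0.53, 0.000437), on 1 to 8 counts in each library of those treated groups apart from RB 3 h a with 10.

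Tau-class transferases, the other large plant class, were listed as 28 loci, of which 14 were tested. At 2 h of RB, 11 of the 14 were higher and 1 lower than water, with a median log2 fold change of 2.38. Of all 9891 genes tested, 12.6% were higher and 12.2% lower there, with a median of 0.043. GSTU12 (AT1G69920) averaged 252 ± 84.0 CPM at 2 h and 1.48 ± 0.909 in water (7.55, SE 0.47, edgeR adjusted p = 1.23e-10). GSTU7 (AT2G29420) and GSTU19 (AT1G78380) were higher by 2.52 (SE 0.26, adjusted p = 7.53e-08) and 1.69 (SE 0.19, adjusted p = 4.09e-07). In RBH against RB 2 h, 6 tau-class loci were higher and 1 lower, with a median of 0.98, while 9.82% of all genes were higher and 6.97% lower, with a median of -0.019. GSTU12 averaged 871 ± 101 CPM in RBH (1.79 above RB 2 h, SE 0.26, adjusted p = 5.97e-05), and GSTU13 (AT1G27130) was higher by 0.96 (SE 0.17, adjusted p = 0.000342). The phi class, with 0 of 8 listed members called in that comparison, was not tested against the tau class.

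Among the other glutathione genes at 2 h of RB, 2 of 7 tested genes of glutathione synthesis, reduction and breakdown were higher than water and 0 lower, with a median of 0.68. With 12.6% of all genes higher and 12.2% lower in that comparison and so few genes listed, the count does not set the list apart. These were GGT1 (AT4G39640), a γ-glutamyl transpeptidase that breaks down glutathione outside the cell, and GSH1 (AT4G23100), the first and rate-limiting enzyme of glutathione synthesis. GGT1 averaged 45.7 ± 3.28 CPM at 2 h and 10.7 ± 4.35 in water (2.08, SE 0.28, edgeR adjusted p = 4.04e-06). GSH1 averaged 859.7 ± 145 CPM at 2 h and 423 ± 61.0 in water (1.02, SE 0.18, adjusted p = 0.00016). AT4G31290 did not pass (-0.40, adjusted p = 0.106). In RBH against RB 2 h, where 16.8% of all genes were called, GSH1 was the 1 gene of this list called (0.65, SE 0.18, adjusted p = 0.0138), and GGT1 did not pass there (-0.50, adjusted p = 0.146).

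The ABCC family includes transporters that carry glutathione conjugates into the vacuole, such as ABCC1 and ABCC2, and members known for other substrates, such as ABCC5 for phytate. Of the 6 listed, ABCC3 (AT3G13080) alone was called at 2 h, where 24.8% of all genes were, so neither this count nor the counts of 0 that follow set these lists apart. It averaged 9.57 ± 0.607 CPM in RB and 1.47 ± 0.259 in water (2.60, SE 0.79, edgeR adjusted p = 0.0198). ABCC5 (0.70) and ABCC4 (-0.38) did not pass, and in RBH against RB 2 h ABCC2 (0.67) and ABCC3 (-0.84) did not either. Of the 4 glutathione peroxidase-like genes tested, edgeR called 0 at 2 h, with 0 at an unadjusted p under 0.05 and 0 by DESeq2. GPX5 (0.85), GPX6 (0.97) and GPX8 (-0.29) had adjusted p of 0.173, 0.345 and 0.384. The same 3 counts were 0 for the 3 tested loci of the zeta, theta, lambda, DHAR and TCHQD classes, GSTZ1 (0.52), DHAR1 (0.67) and DHAR3 (-0.01).

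The genes whose pattern lay closest to each member were found by the root mean square difference of centred log2 CPM over the 15 libraries. A smaller value is a closer match for the same member. For GSTF8 these were DGK5 (0.209), a diacylglycerol kinase, and WRKY6 (0.214), a transcription factor. For GSTF2 they were PYM (0.199) and AT5G35200 (0.202), for GSTF6 AR781 (0.379) and AT5G56960 (0.452), and for GSTF7 GDPD2 (0.264) and RLP12 (0.303). GSTF11 lay closest to AT1G21440 (0.333) and APT3 (0.335). GSTF9 lay closest to AT4G34630 (0.237) and AT3G14860 (0.267), GSTF10 to AT1G30880 (0.296) and AT4G33865 (0.313), and GSTF13 to AT4G36420 (0.173) and AT1G73940 (0.181). Listed members were left out of this search. These are the smallest values over the genes tested, and a member that varied little lies near any gene that varied little. The SD of log2 CPM over the libraries was 0.40 for GSTF13 and 1.25 for GSTF6, so the values do not rank matches between members.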

How the data were processed

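Root libraries were made with MARS-seq, per the labels' protocols. STAR 2.4.2a, HTSeq, DESeq2, bcl2fastq and cutadapt are listed, per the submitters' processing notes. The sources used here give neither settings nor genome build, annotation, strand or the treatment of molecular identifiers. The authors deposited whole-number counts per gene and library. The deposited table also gives log2 fold changes, adjusted p-values and a yes or no mark of genes past the authors' threshold (another kind of value, as the authors labelled it). The 30 per-library columns of normalised or transformed values were not used.

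Counts were tested with edgeR 4.0.16 in R 4.3.3 (filterByExpr, TMM scaling, 1 robust quasi-likelihood fit of all 15 libraries with a term per group). A call needed an adjusted p (Benjamini-Hochberg, 9891 genes) under 0.05. The biological coefficient of variation was 20.6%. The test was checked on simulated counts with the same spread for all genes and changes placed only in genes above a low CPM level. The spread of single genes was not simulated, so this check does not extend to the calls of single members. SE was derived from the log2 fold change and its F statistic. CPM use TMM-scaled totals. DESeq2 1.42.0 served as an alternative. Shares and ratios were tested by exact permutation. A count of 1 was 0.160 to 1.11 CPM over the libraries, and intervals cover counting error only. Replicate pairs differed by a chi-square per degree of freedom of 3.00 to 11.1, so none was a duplicate. All 9 listed loci are named, with counts in each library (GSTF7, with a mean under 10 counts, included). From the other lists, up to 3 loci with the smallest p at 2 h of RB and up to 2 in RBH against RB 2 h are named, and per member the 2 nearest genes. GSTF3 and GSTF14 were shown in further comparisons after their values were seen. The members, lists, motifs and alternatives were chosen with earlier results of these data known. The promoter window of 1 listed locus is not reported here. Promoters, coding sequences and symbols come from RefSeq TAIR10.1, which held 14356 of the 14391 loci.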

Additional observations from a re-analysis of the deposited data

How the results depend on the processing

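Of 56 gene results (8 members in 7 comparisons), 17 were called, and 14 of these kept their call in every alternative that tested them. The others are GSTF6 at 1 h and GSTF2 and GSTF7 at 2 h, all against water. Of the 39 uncalled, 5 gained a call in some alternative. The number of members called at 2 h against water was 3 to 5 when leaving out 1 library at a time (5 with all), and at 2 h against 1 h of RB it was 1 to 2 (1 with all). At 3 h against 2 h DESeq2 called 1, GSTF8, in place of 0, and 99 of all genes tested in place of 22. The deviations of like-lettered libraries correlated at -0.229 to 0.271 over 21 pairs, 3 of them over 0.1. Libraries of unlike letters were not compared, so whether the replicate letters pair the libraries was not tested. The main fit did not use the letters. With a replicate block, 2 members were called at 1 h, 4 at 2 h, 4 at 3 h and 4 in RBH against water, 0 in RBH against RB 2 h, 1 at 2 h against 1 h and 0 at 3 h against 2 h. Over all 9891 genes the same fit called 417, 2203, 2985, 2456, 1434, 830 and 9 in these comparisons, in the same order. The calls lost with the block were GSTF6 at 1 h (adjusted p = 0.0654) and GSTF7 at 2 h (adjusted p = 0.059), by edgeR.

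Values that changed sign were all uncalled. Summing near copies gave 0.052 for GSTF6 and GSTF7 together in RBH against RB 2 h, where GSTF6 alone was 0.115 and GSTF7 alone -0.227. The 0.052 is a value of the sum and not of GSTF7 itself. Without the 2 libraries apart on the third component, GSTF13 at 2 h against 1 h was 0.13 and GSTF6 at 3 h against 2 h was 0.014. Leaving out 1 library at a time, the log2 fold change of GSTF10 ran from -0.031 to 0.54 at 1 h against water, -0.49 to 0.64 in RBH against water, -0.93 to 0.18 in RBH against RB 2 h, -0.11 to 0.53 at 2 h against 1 h and -0.33 to 0.37 at 3 h against 2 h. In RBH against RB 2 h, GSTF6 ran from -0.50 to 0.58, GSTF7 from -0.85 to 0.32 and GSTF9 from -0.39 to 0.26. At 2 h against 1 h, GSTF13 ran from -0.22 to 0.071. At 3 h against 2 h, GSTF6 ran from -0.69 to 0.016, GSTF7 from -0.54 to 0.10 and GSTF11 from -0.12 to 0.37. The log2 ratio of GSTF9 to GSTF10 differed by -0.45 to 0.51 at 1 h, -0.48 to 0.24 at 3 h and -0.99 to 0.28 in RBH against water, and by -0.25 to 1.02 in RBH against RB 2 h. That of GSTF2 to GSTF8 differed by -0.30 to 0.12 in RBH against RB 2 h and by -0.17 to 0.23 at 3 h against 2 h. That of GSTF6 to GSTF7 differed by -0.26 to 0.35 at 2 h against 1 h and by -0.28 to 0.33 at 3 h against 2 h. The cause was not tested.

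GSTF6 and GSTF7 had 1 or 2 counts in each water library, which limits the precision of their fold changes. Over the alternatives, the number of all genes called ranged from 296 to 1104 at 1 h, 1707 to 2869 at 2 h, 2486 to 3795 at 3 h and 2133 to 3044 in RBH against water, from 1067 to 2235 in RBH against RB 2 h (1660 as reported), from 541 to 1046 at 2 h against 1 h (968 as reported) and from 0 to 99 at 3 h against 2 h (22 as reported). Leaving out single libraries moved some of these edgeR counts by over 1.5 times. At 1 h (533 as reported) it was 348 or 296 without water a or c and 312 or 331 without RB 1 h a or c. In RBH against RB 2 h it was 1077 without RBH c, and at 2 h against 1 h leaving out RB 1 h a gave 541 and leaving out RB 2 h c gave 612. At 3 h against 2 h, leaving out any of 13 libraries did so, and it was 0 without RB 2 h b, RB 3 h a or RB 3 h b.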
